A study of Mus musculus with 48 samples.

Results

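CIE mice at 8h of withdrawal were compared with CIE mice at 0h, that is, mice killed 8 h after their last ethanol vapor session against mice killed straight after it. The members were the arrays whose labels gave ethanol exposure and one of these times, 6 at 8h and 6 at 0h, 12 of the 48 arrays of the series. All mice were adult male C57BL/6J, and hippocampus (HPC) RNA of each mouse was hybridised to 1 Affymetrix whole-genome expression array. Chronic intermittent ethanol (CIE) consisted of 4 cycles, each of 4 days with 16 h a day in vapor held at 10 to 13 mg ethanol per litre of air followed by 7 days without ethanol, and before each cycle the mice were injected with ethanol (1.6 g/kg) plus pyrazole (1 mmol/kg). The comparison group of 6 Ctrl mice at 8h and 6 at 0h went through the same handling with air, saline and pyrazole. Pyrazole, which blocks the breakdown of ethanol, was therefore shared by all groups, and blood ethanol is held high by it in this model. The hour of the day at each harvest is not given in the sources used here, so 8 h of withdrawal and 8 h of clock time cannot be told apart within CIE mice alone. Ctrl mice of the same times were set beside them for this reason.

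Ethanol strengthens inhibition and weakens excitation in the brain, and nervous tissue adapts to it during long exposure. When ethanol leaves the body, the adapted hippocampus becomes hyperexcitable within hours, and seizures can follow. Immediate early genes are transcribed within minutes of strong synaptic activity and are used as markers of it. The endoplasmic reticulum (ER) answers a load of unfolded protein by raising its own chaperones, and interferons and chemokines carry inflammatory signals between glia, vessels and blood cells.

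Each probe set had a log2 expression value on every array, and a difference of 1 on this scale is a doubling. Array medians lay between 6.601 and 6.627, and any pair of the 48 arrays correlated at 0.974 to 0.998. In all, 1290 of 45037 probe sets (2.86%) differed between 8h and 0h in CIE mice at a threshold of 0.01 on the false discovery rate (FDR), 739 higher and 551 lower at 8h. With 1 probe set per gene, 540 of 18193 genes (2.97%) were called, of which 312 rose (1.71%) and 228 fell (1.25%). These counts moved with single mice, as 341 genes were called without CIE mouse 25 of 8h and 337 without CIE mouse 69 of 8h. Changes were mostly small, with a median of 0.35 over the genes that rose and −0.32 over those that fell. More than a doubling was measured for 13 of the genes that rose, and 3 genes (Rgs13, Dlgap2 and Ciart) fell more than 2-fold. At an unadjusted p under 0.05 lay 22.3% of all genes in CIE mice and 17.3% in Ctrl mice. Of all genes measured, 5.06% had 2 groups of CIE mice that did not overlap. The 5 genes just inside the threshold had FDR values from 0.009845 to 0.009938 with changes of 0.26 to 0.51 in size, and the 5 just outside had 0.01 to 0.01003 with changes of 0.24 to 0.84.

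The same change was measured in Ctrl mice, where 86 genes (0.473%) were called. Of the 312 genes that rose in CIE mice, 270 also had a change above 0 in Ctrl mice, and 15 of them were called there. Of the 228 genes that fell in CIE mice, 168 had a change below 0 in Ctrl mice, and 6 were called there. Among all genes, 55.5% had a change above 0 in CIE mice and 69% in Ctrl mice. The median change of the genes that rose was 0.35 in CIE mice and 0.14 in Ctrl mice, and that of the genes that fell was −0.32 in CIE mice and −0.06 in Ctrl mice. Over all 18193 genes the changes had a Pearson r of 0.47, a description across genes, which are not independent replicates. No mouse was in both comparisons, but arrays of both lay in the same 6 sets of arrays that share exactly equal values. A direct test of the difference between the 2 changes called 15 probe sets (0.0333%), 11 with a positive and 4 with a negative difference, and 6 genes (0.033%). Without single mice the 15 became 8 (CIE mouse 25 of 8h), 9 (CIE mouse 69 or Ctrl mouse 8 of 8h), 26 (CIE mouse 11 of 0h) and 23 (Ctrl mouse 38 of 0h).

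**Figure D1:**
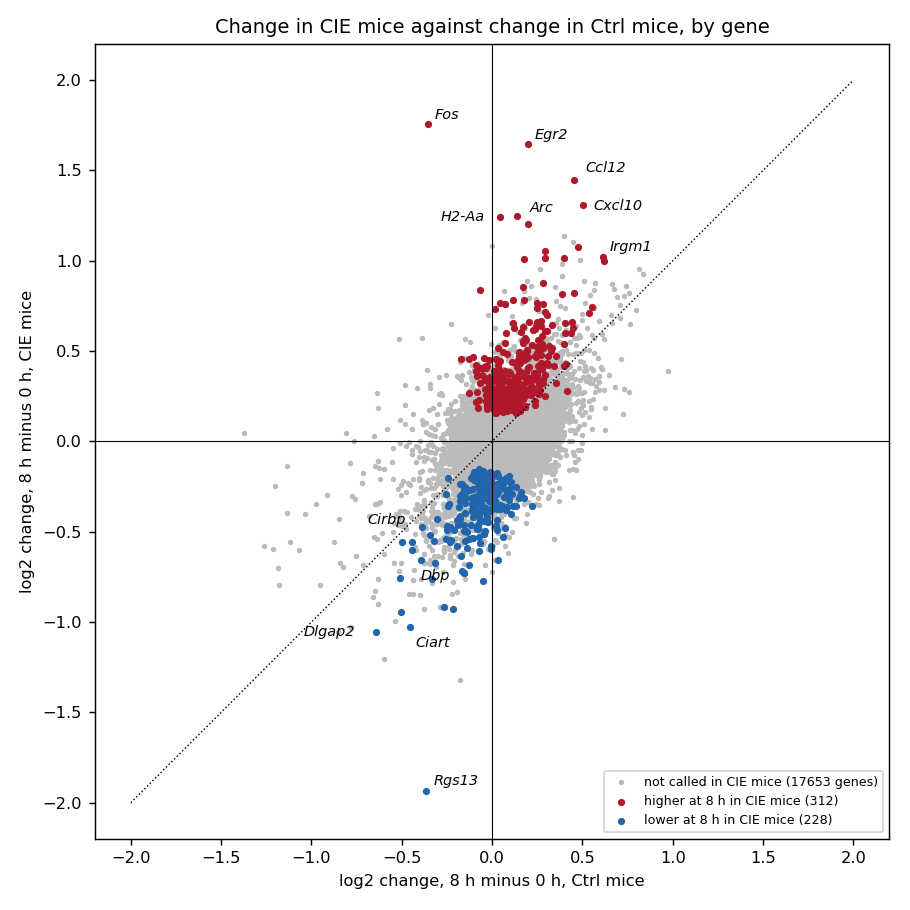
Log2 change from 0h to 8h in CIE mice (vertical axis) against the same change in Ctrl mice (horizontal axis), 1 point per gene. Red points are the 312 genes that rose and blue points the 228 that fell in CIE mice, and the dotted line marks equal changes. Fos lies high above the line and left of 0, and Rgs13 lies far below it.

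Of 39 immediate early genes measured, 10 rose and 0 fell, where 1.71% of all genes rose, and 33 had a change above 0. The median change of the list was 0.34 in CIE mice and 0.09 in Ctrl mice, beside 0.02 and 0.05 over all genes. Fos encodes a subunit of the AP-1 transcription factor and is the standard marker of recently active neurons. At 8h the 6 CIE mice had Fos values from 8.71 to 9.69 with a median of 9.21, and at 0h from 6.94 to 7.83 with a median of 7.49. The groups did not overlap, and Fos rose 3.38-fold (log2 change 1.76, SE 0.22, FDR 1.32e-06). In Ctrl mice Fos averaged 8.43 ± 0.70 at 8h and 8.78 ± 0.34 at 0h (SD, n = 6 each), a change of −0.36 (SE 0.22) that did not pass (FDR 0.384). CIE mice thus had a higher mean than Ctrl mice at 8h and a lower one at 0h. The 2 changes differed by 2.11 (SE 0.31, FDR 0.000495). The FDR of that difference was 0.0198 when the arrays of these 4 groups alone were fitted.

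Other transcription factor genes of the list rose as well. Egr2, a zinc finger factor of the EGR family, ranged from 5.19 to 7.50 (median 6.91) at 8h and from 4.90 to 5.21 (median 5.05) at 0h. One 8h mouse lay within the 0h range while the other 5 lay above it, and the rise was 3.12-fold (log2 change 1.64, SE 0.30, FDR 0.00031). Egr1, a relative that controls late genes of plasticity, rose 2.07-fold (1.05, SE 0.22, FDR 0.0015), and Egr4 rose by 0.43 (SE 0.11, FDR 0.00739). Nr4a1, an orphan nuclear receptor induced by calcium, ranged from 9.88 to 10.95 (median 10.76) at 8h and from 9.16 to 9.98 (median 9.57) at 0h, with overlap, and rose 2.01-fold (1.01, SE 0.23, FDR 0.00399). Npas4, which is induced by neuronal calcium entry and builds inhibitory synapses, rose 2.02-fold (1.02, SE 0.25, FDR 0.00833). The Npas4 call was lost in 9 of 12 fits that each left out 1 CIE mouse (0h mice 11, 43, 57 and 67 and 8h mice 15, 21, 25, 41 and 69), with FDR values up to 0.0277, and with the array sets as a block (FDR 0.02). Klf10 rose by 0.76 (SE 0.16, FDR 0.00217) and Maff, a small MAF protein gene, by 0.43 (SE 0.08, FDR 0.000664).

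Arc and Dusp6 act outside the nucleus. Arc encodes a protein of dendrites that takes AMPA receptors off the synapse. Its values ran from 9.02 to 10.03 (median 9.87) at 8h and from 8.05 to 8.99 (median 8.43) at 0h, without overlap, a 2.37-fold rise (log2 change 1.25, SE 0.19, FDR 4.32e-05). In Ctrl mice Arc averaged 9.26 ± 0.43 at 8h and 9.12 ± 0.42 at 0h, and the difference of the changes was 1.11 (SE 0.28, FDR 0.0533). Dusp6, a phosphatase that switches off ERK, rose 1.69-fold (0.76, SE 0.17, FDR 0.00395), with 10.69 to 11.54 at 8h and 10.24 to 10.65 at 0h. Not every member followed. Jun, the partner of Fos in AP-1, had a change of −0.66 (SE 0.32, FDR 0.216), Gadd45g −0.49 (SE 0.12, FDR 0.0105) and Bdnf, the activity-dependent neurotrophin gene, −0.22 (SE 0.25, FDR 0.656). Homer1 was not called by its probe set with the highest mean, though another Homer1 probe set, given under other observations, was called. Without CIE mouse 43 of 0h the list had 5 called genes (Fos, Egr2, Egr1, Arc and Maff). The calls of Nr4a1, Klf10, Egr4, Dusp6 and Npas4 were thus lost in that fit. Without 8h mice 21 or 69 the list had 6, and in the fit with array weights 17.

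Peptides released by neurons were measured in other lists. Vgf, a neuropeptide precursor gene, ran from 10.48 to 10.88 (median 10.71) at 8h and from 9.60 to 10.26 (median 9.82) at 0h, without overlap, and rose 1.81-fold (log2 change 0.86, SE 0.17, FDR 0.000759). It was the 1 gene called of 6 neurotrophins and receptors, where 2.97% of all genes were called. Of 20 neuropeptide genes, 1 was called, Crh, the corticotropin-releasing hormone gene, at 7.21 to 7.61 (median 7.38) at 8h and 6.41 to 6.76 (median 6.67) at 0h (log2 change 0.77, SE 0.18, FDR 0.0065). The Crh call was lost in 10 of 12 fits that left out 1 mouse, all but those without 0h mouse 67 or 8h mouse 69, and with the array sets as a block (FDR 0.0143). Adcyap1, the gene of the peptide PACAP, had a change of 0.83 (SE 0.25) at an FDR of 0.0292. Vip, a peptide of interneurons, changed by 0.66 in CIE mice (FDR 0.045) and by 0.66 in Ctrl mice.

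**Figure D2:**
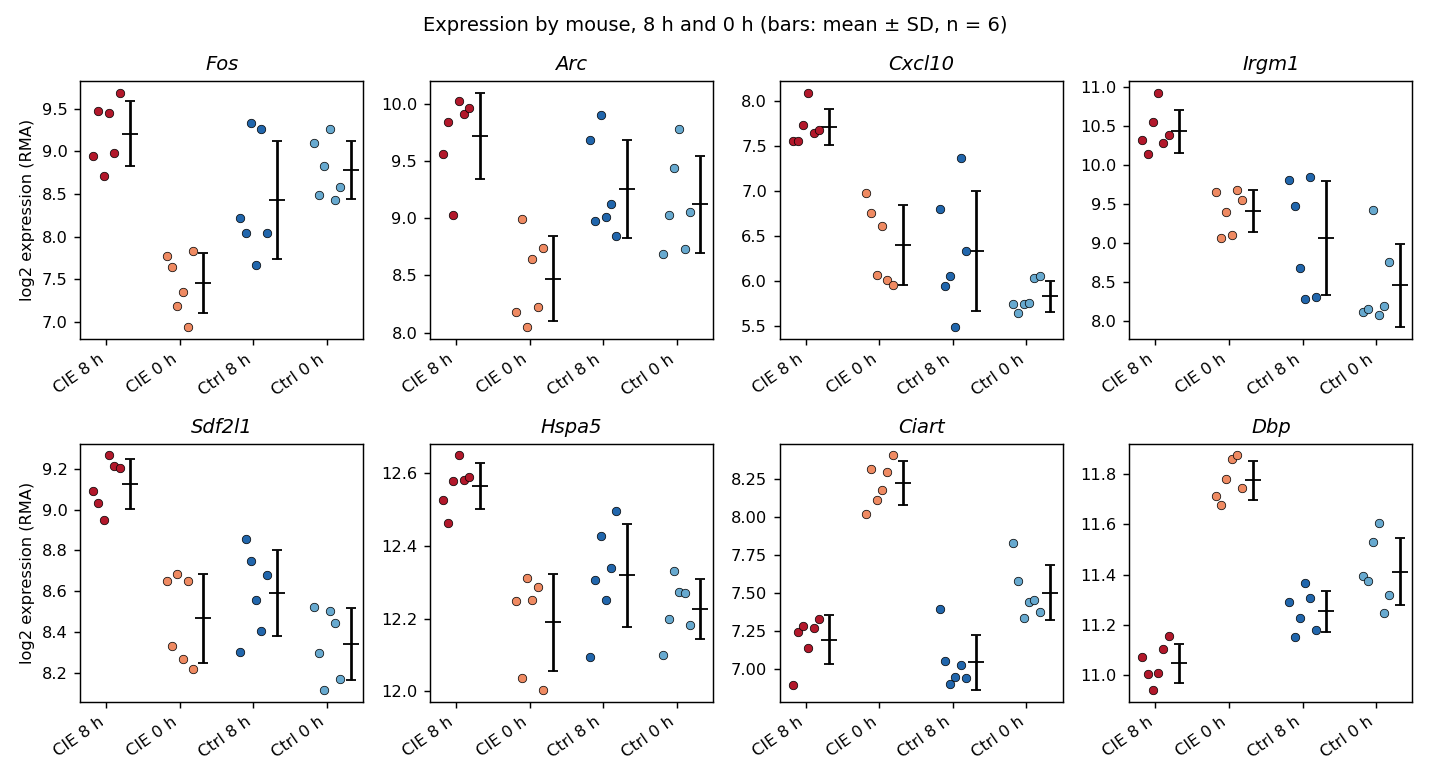
Log2 expression of 8 genes in each mouse (points) with the group mean and SD (bars, n = 6), for CIE 8h, CIE 0h, Ctrl 8h and Ctrl 0h from left to right. The 8 genes were picked from those called in CIE mice. For all 8 the CIE 8h and 0h mice do not overlap, as for 231 of the 312 genes that rose and 153 of the 228 that fell, beside 5.06% of all genes. Ctrl mice at 8h and 0h overlap for genes that include Fos, Arc, Cxcl10, Irgm1, Sdf2l1, Ciart and Dbp.

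Of 33 ER chaperone genes measured, 10 rose and 0 fell, where 1.71% of all genes rose. For all but Canx and Pdia3 among these 10 the 8h and 0h mice did not overlap, as for 231 of the 312 genes that rose. The median change over the list was 0.14 in CIE mice and 0.07 in Ctrl mice. Sdf2l1, an ER-resident cofactor of BiP, ran from 8.95 to 9.27 (median 9.15) at 8h and from 8.22 to 8.68 (median 8.49) at 0h, a 1.58-fold rise (log2 change 0.66, SE 0.09, FDR 1.23e-05). Pdia4, a protein disulfide isomerase gene, rose 1.46-fold (0.55, SE 0.08, FDR 1.58e-05), with 9.32 to 9.60 at 8h and 8.66 to 9.16 at 0h. Creld2, an ER stress-inducible protein gene, rose 1.41-fold (0.50, SE 0.07, FDR 2.87e-06), with 9.00 to 9.24 at 8h and 8.48 to 8.71 at 0h. Hspa5 encodes BiP, the main ER chaperone and sensor of unfolded protein, and ran from 12.46 to 12.65 (median 12.58) at 8h and from 12.00 to 12.31 (median 12.25) at 0h (log2 change 0.37, SE 0.07, FDR 0.000227). Pdia6 (0.47, SE 0.07), Pdia3 (0.47, SE 0.11), Hsp90b1 (0.29, SE 0.05), which encodes the chaperone GRP94, Dnajb11 (0.26, SE 0.05) and the lectin chaperone gene Canx (0.20, SE 0.04) rose with FDR values of 0.00474 or less.

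Manf, a secreted neurotrophic protein of the ER, was the one chaperone whose change was called as different from that in Ctrl mice. It ran from 10.96 to 11.14 (median 11.05) at 8h and from 10.49 to 10.78 (median 10.68) at 0h (log2 change 0.41, SE 0.06, FDR 1.79e-05), against a change of −0.06 (SE 0.06) in Ctrl mice. The difference was 0.46 (SE 0.08, FDR 0.00649), and that call was the least stable of the 6, with an FDR of 0.037 with the array sets as a block, 0.055 when only the arrays of these groups were fitted, 0.0206 with array weights, and between 0.0109 and 0.0207 without any of 13 single mice (CIE 0h mice 19, 57 and 72, CIE 8h mice 15, 23, 25, 41 and 69, Ctrl 8h mice 4, 42 and 66 and Ctrl 0h mice 2 and 56). Of the other ER chaperones, Pdia4 had a difference of 0.47 (SE 0.11, FDR 0.0448) and Creld2 of 0.35 (SE 0.09, FDR 0.076), which did not pass. The list count was 9 to 11 without any 1 mouse and 9 with the array sets as a block.

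The integrated stress response lowers general translation and raises a set of genes through ATF4. Of its 24 genes measured, 3 rose, beside 1.71% of all genes. Atf4 itself ran from 11.24 to 11.44 (median 11.40) at 8h and from 10.85 to 11.17 (median 10.93) at 0h (log2 change 0.40, SE 0.07, FDR 0.000148). Mthfd2, a mitochondrial folate enzyme gene, rose by 0.50 (SE 0.08, FDR 6.88e-05) and Chac1, which degrades glutathione, by 0.55 (SE 0.11, FDR 0.000824). Ddit3, the gene of the factor CHOP, had a change of 0.20 (SE 0.06, FDR 0.0412).

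RefSeq promoter windows (GRCm38.p6, 250 bases before to 50 after each annotated start) were searched for the ER stress element, taken as CCAAT and CCACG with 9 bases of any kind between them, on both strands. The element was present in 5 of the 9 called ER chaperone genes with a window (55.6%), in 10 of 27 measured list members (37%) and in 37 of 27025 genes with a window (0.137%). The 5 windows are shown because these genes rose together, with the element's letters in capitals, and in the 5 windows it began 65 to 212 bases before the start. Hsp90b1 held 2 copies, and the copy that reads CGTGG and ATTGG, as in Creld2, lies on the opposite strand. A match is only a run of letters in the window, and its absence in the other called genes says only that these letters were not there.
Hspa5, chr2:34771840-34772139, plus strand: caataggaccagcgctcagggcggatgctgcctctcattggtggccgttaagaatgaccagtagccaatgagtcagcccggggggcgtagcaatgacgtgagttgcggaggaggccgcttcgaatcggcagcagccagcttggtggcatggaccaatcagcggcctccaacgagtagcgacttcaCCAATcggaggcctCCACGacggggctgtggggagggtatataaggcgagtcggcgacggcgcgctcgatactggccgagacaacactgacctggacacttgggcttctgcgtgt
Hsp90b1, chr10:86705395-86705694, minus strand: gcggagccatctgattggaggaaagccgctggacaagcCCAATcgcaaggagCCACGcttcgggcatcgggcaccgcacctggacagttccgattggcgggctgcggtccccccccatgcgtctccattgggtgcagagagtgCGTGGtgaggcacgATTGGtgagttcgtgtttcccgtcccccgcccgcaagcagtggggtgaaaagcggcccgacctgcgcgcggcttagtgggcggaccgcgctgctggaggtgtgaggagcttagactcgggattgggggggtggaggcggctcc
Canx, chr11:50325624-50325923, minus strand: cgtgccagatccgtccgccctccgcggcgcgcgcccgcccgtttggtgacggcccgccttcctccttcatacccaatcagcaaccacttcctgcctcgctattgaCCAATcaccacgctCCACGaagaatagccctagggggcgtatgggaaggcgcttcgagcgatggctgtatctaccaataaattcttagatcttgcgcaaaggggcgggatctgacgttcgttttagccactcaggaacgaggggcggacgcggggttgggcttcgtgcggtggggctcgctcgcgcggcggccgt
Pdia6, chr12:17266339-17266638, plus strand: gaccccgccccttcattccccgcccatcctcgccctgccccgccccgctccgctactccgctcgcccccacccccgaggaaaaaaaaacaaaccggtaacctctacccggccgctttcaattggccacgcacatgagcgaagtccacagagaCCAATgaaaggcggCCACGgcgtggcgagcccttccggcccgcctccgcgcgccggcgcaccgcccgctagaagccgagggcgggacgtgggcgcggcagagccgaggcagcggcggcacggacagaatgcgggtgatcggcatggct
Creld2, chr15:88819396-88819695, plus strand: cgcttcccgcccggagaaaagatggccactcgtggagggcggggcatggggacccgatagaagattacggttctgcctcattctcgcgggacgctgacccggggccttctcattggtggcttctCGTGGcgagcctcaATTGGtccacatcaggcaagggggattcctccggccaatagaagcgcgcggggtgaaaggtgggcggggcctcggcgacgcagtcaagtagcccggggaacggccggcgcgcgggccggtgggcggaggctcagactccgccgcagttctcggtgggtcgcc

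Of 23 circadian clock and clock output genes, 4 fell (Ciart, Dbp, Usp2 and Nr1d1) and 2 rose (Per2 and Arntl). Of all genes, 1.25% fell and 1.71% rose. Dbp, a transcription factor driven directly by the CLOCK and BMAL1 pair, had the smallest p of all named genes. Its values ran from 10.94 to 11.15 (median 11.04) at 8h and from 11.68 to 11.88 (median 11.76) at 0h, without overlap, and it fell 1.66-fold (log2 change −0.73, SE 0.05, FDR 1.21e-12). In Ctrl mice Dbp averaged 11.25 ± 0.08 at 8h and 11.41 ± 0.13 at 0h, a change of −0.16 (SE 0.05, FDR 0.0753), and the 2 changes differed by −0.57 (SE 0.08, FDR 8.96e-05). That difference was called in every alternative fit, and a second Dbp probe set gave −0.56 (FDR 0.0012).

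Ciart, a repressor of CLOCK and BMAL1 that follows their rhythm, ran from 6.90 to 7.33 (median 7.26) at 8h and from 8.02 to 8.40 (median 8.24) at 0h, without overlap, and fell 2.04-fold (log2 change −1.03, SE 0.09, FDR 8.93e-11). It also fell in Ctrl mice, by 0.46 on the log2 scale (SE 0.09, FDR 0.0026), and the difference of −0.57 (SE 0.12) did not pass (FDR 0.0284). At 8h Ciart averaged 7.19 ± 0.16 in CIE and 7.05 ± 0.18 in Ctrl mice, and at 0h 8.22 ± 0.14 in CIE and 7.50 ± 0.18 in Ctrl mice. Usp2, a clock-controlled deubiquitinase gene, fell by 0.60 (SE 0.10, FDR 6.35e-05) and Nr1d1, which encodes the repressor REV-ERB alpha, by 0.37 (SE 0.07, FDR 0.00089), against changes of −0.07 and 0.03 in Ctrl mice. Arntl, the gene of BMAL1, which REV-ERB alpha represses, rose by 0.30 (SE 0.07, FDR 0.00823), and Per2, a period gene, by 0.47 (SE 0.09, FDR 0.000717). Per1 had a change of −0.14 (FDR 0.286). The E-box CACGTG, the site that CLOCK and BMAL1 bind, was in 1 of the 5 called clock genes with a promoter window (20%), in 6 of 20 measured clock genes with one (30%) and in 8.09% of all genes with one. The Ciart window is shown because it held 3 E-boxes (capitals), and the fall of Ciart exceeded that of any other clock gene.
Ciart, chr3:95882179-95882478, minus strand: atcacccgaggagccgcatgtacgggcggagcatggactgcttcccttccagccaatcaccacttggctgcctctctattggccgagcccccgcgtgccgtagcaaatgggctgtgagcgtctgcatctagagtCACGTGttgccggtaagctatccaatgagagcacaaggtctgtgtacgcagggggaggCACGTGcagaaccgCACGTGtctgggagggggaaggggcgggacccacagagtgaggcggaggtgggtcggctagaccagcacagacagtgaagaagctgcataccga

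Of 29 cytokine, chemokine and adhesion genes, 5 rose (Cxcl10, Ccl12, Ccl3, Ccl4 and Icam1) and 0 fell, where 1.71% of all genes rose. Cxcl10, an interferon-induced chemokine that draws T cells, ran from 7.55 to 8.09 (median 7.65) at 8h and from 5.96 to 6.98 (median 6.34) at 0h, a 2.48-fold rise without overlap (log2 change 1.31, SE 0.18, FDR 7.66e-06). Ccl12, a chemokine that draws monocytes, ran from 7.94 to 8.94 (median 8.29) at 8h and from 6.41 to 7.32 (median 6.82) at 0h, a 2.73-fold rise (1.45, SE 0.25, FDR 0.000216). Ctrl mice had changes of 0.50 (SE 0.18) for Cxcl10 and 0.46 (SE 0.25) for Ccl12, and the differences from CIE mice did not pass (FDR 0.15 and 0.224). The chemokine gene Ccl3 rose by 0.60 (SE 0.13, FDR 0.00175) at levels of 4.67 to 5.51 at 8h and 4.40 to 4.72 at 0h that are not shown to be above background, its relative Ccl4 by 0.35 (SE 0.08, FDR 0.0034) and Icam1, an adhesion protein of activated vessels, by 0.49 (SE 0.11, FDR 0.00355). The call of Ccl4 was lost without CIE mouse 43 of 0h or 69 of 8h, and that of Icam1 without 0h mice 57 or 67 or 8h mouse 41.

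Interferon-stimulated genes leaned the same way in both treatments. In CIE mice 42 of 43 had a change above 0, with a median of 0.46, where 55.5% of all genes were above 0. Of these 43, 5 were called higher (Irgm1, Ifi47, Gbp7, Irf1 and Trim21), beside 1.71% of all genes. At an unadjusted limma p under 0.05 lay 36 in CIE mice, beside 22.3% of all genes. In Ctrl mice 42 of 43 were also above 0, with 0 called by limma and a median of 0.40, and 22 lay at an unadjusted p under 0.05, where 17.3% of all genes did. No difference between the 2 changes was called for these genes. Irgm1, an interferon-induced GTPase, ran from 10.14 to 10.93 (median 10.35) at 8h and from 9.07 to 9.68 (median 9.48) at 0h (log2 change 1.02, SE 0.22, FDR 0.00285), against a change of 0.61 (SE 0.22, FDR 0.104) in Ctrl mice. Ifi47, of the same family, rose 1.99-fold (1.00, SE 0.16, FDR 8.85e-05), Irf1, an interferon-induced transcription factor, by 0.62 (SE 0.13, FDR 0.00222), Trim21, a ubiquitin ligase that binds antibodies in the cytosol, by 0.60 (SE 0.11, FDR 0.000664) and Gbp7 by 0.75 (SE 0.18, FDR 0.00552). In all, 17 of the 43 had 8h mice entirely above the 0h mice, beside 558 of all 18193 genes. The call of Irgm1 was lost without CIE mouse 19 of 0h or 25 of 8h, that of Irf1 without 8h mouse 25, and that of Gbp7 without 0h mice 19, 43 or 57 or 8h mice 21, 23 or 25 and with the array sets as a block (FDR 0.0133). The list count was 2 without 8h mouse 25 and 3 without 0h mouse 19, 15 when only the 12 arrays were fitted, 20 with array weights and 10 with the mean of dentate markers as a covariate. The list mean lay between 8.12 and 8.68 in CIE mice at 8h and between 7.71 and 8.02 at 0h, while Ctrl mice spread from 7.08 to 8.52 at 8h and from 7.03 to 7.77 at 0h.

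Antigen presentation genes had wide spreads. All 7 MHC class II genes had a change above 0 (median 0.46, and 0.08 in Ctrl mice) and 1 was called. Of all genes, 55.5% had a change above 0 in CIE mice and 2.97% were called. H2-Aa, the class II alpha chain gene, ran from 7.58 to 8.39 (median 7.93) at 8h and from 6.30 to 7.36 (median 6.65) at 0h, without overlap, and rose 2.36-fold (log2 change 1.24, SE 0.27, FDR 0.0023), against a change of 0.04 (SE 0.27) in Ctrl mice. The difference of 1.20 (SE 0.38) did not pass (FDR 0.142), and 3 other H2-Aa probe sets were not called. H2-Eb1, a class II beta chain gene, had a change of 0.83 (SE 0.34, FDR 0.125). All 12 MHC class I genes had a change above 0 and 0 were called by limma (12 at an unadjusted p under 0.05, beside 22.3% of all genes), with a median of 0.49 in CIE and 0.29 in Ctrl mice, and 0.27 in CIE mice when all probe sets of a gene were averaged. The nearest to the threshold were Tap2, a peptide transporter gene, at 0.50 (FDR 0.0104), and H2-D1, a class I heavy chain gene, at 0.78 (FDR 0.0122). When only the arrays of the groups compared were fitted, 2 class I genes were called in CIE mice, as with a mean of at least 6, array weights or the dentate covariate, and 1 was called without 0h mouse 11 or 8h mouse 41, and 1 class I gene was called in Ctrl mice in the fit of all arrays. Probe sets of class I genes can share probes with related genes.

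**Figure D3:**
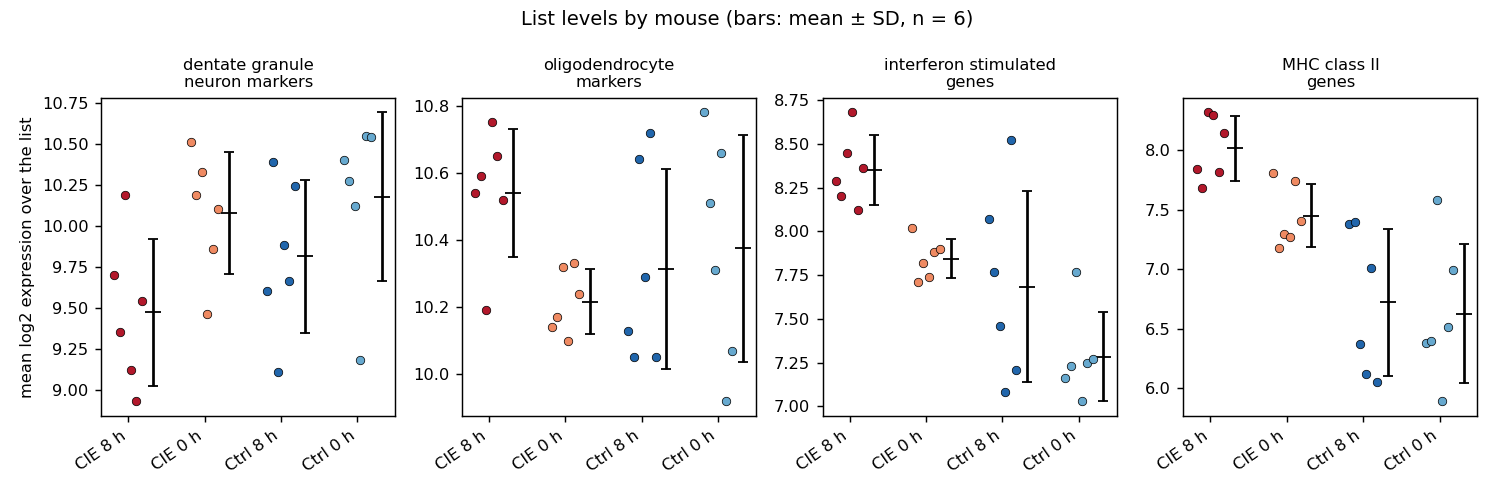
Mean log2 expression over a list in each mouse (points) with the group mean and SD (bars, n = 6), for dentate granule neuron markers, oligodendrocyte markers, interferon-stimulated genes and MHC class II genes. CIE mice at 8h lie above CIE mice at 0h without overlap for the interferon list, and the dentate marker means lie lower at 8h with overlap.

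Of 22 heat shock genes, 3 rose, beside 1.71% of all genes, and the median change was 0.14 in CIE and 0.11 in Ctrl mice. Hspb1, a small heat shock protein gene, ran from 9.19 to 9.53 (median 9.39) at 8h and from 8.43 to 8.97 (median 8.72) at 0h (log2 change 0.71, SE 0.15, FDR 0.00153), against 0.54 (SE 0.15, FDR 0.0242) in Ctrl mice. The count was 5 without CIE mouse 57 of 0h and 8 with array weights. Cryab, the gene of alpha B-crystallin, rose by 0.57 (SE 0.12, FDR 0.00156) and Chordc1, an HSP90 cochaperone gene, by 0.27 (SE 0.05, FDR 0.000233). Chordc1 also rose in Ctrl mice, by 0.21 (SE 0.05, FDR 0.0091). Hspa1a, which encodes inducible HSP70, had a change of −0.33 (FDR 0.0811) in CIE and 0.37 (FDR 0.0599) in Ctrl mice, and its near-identical copy Hspa1b −0.31 and 0.45. Cirbp, an RNA-binding protein gene induced by mild cold, ran from 9.66 to 10.09 (median 9.86) at 8h and from 10.11 to 10.48 (median 10.38) at 0h. It fell in CIE mice (log2 change −0.48, SE 0.06, FDR 5.26e-06) and in Ctrl mice (−0.39, SE 0.06, FDR 0.000771), with a difference of −0.09 (SE 0.09, FDR 0.778) between these changes.

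Vegfa and Adm, genes of vascular factors that low oxygen induces, rose. Vegfa, the vascular endothelial growth factor gene, ran from 8.01 to 8.44 (median 8.21) at 8h and from 7.48 to 7.87 (median 7.50) at 0h (log2 change 0.64, SE 0.08, FDR 4.06e-06). Its 1 other probe set was not called. In Ctrl mice Vegfa averaged 8.24 ± 0.12 at 8h and 8.00 ± 0.12 at 0h, a change of 0.24 (SE 0.08). The mean of CIE mice was thus near that of Ctrl mice at 8h and lower at 0h. The difference of the changes, 0.39 (SE 0.12), did not pass (FDR 0.129). Adm, the gene of the vasodilator adrenomedullin, ran from 6.85 to 7.28 (median 7.10) at 8h and from 5.77 to 6.66 (median 6.20) at 0h (0.84, SE 0.14, FDR 0.000159), against a change of −0.06 (SE 0.14) in Ctrl mice and a difference of 0.90 (SE 0.20, FDR 0.0341). Both were called among 15 genes in the hypoxia and glucose list, where 2.97% of all genes were called. Kdr, the main VEGF receptor gene of endothelium, rose by 0.42 (SE 0.10, FDR 0.00527) and changed by 0.40 in Ctrl mice (FDR 0.0128). The Kdr call was lost without CIE 0h mice 19, 43 or 57 or 8h mice 15, 21, 25 or 69 and with the array sets as a block (FDR 0.0108).

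Rgs13, an inhibitor of G protein signalling, ran from 4.27 to 5.15 (median 4.68) at 8h and from 6.47 to 6.83 (median 6.63) at 0h, without overlap, and fell 3.82-fold (log2 change −1.93, SE 0.38, FDR 0.000988). In Ctrl mice Rgs13 averaged 5.91 ± 0.86 at 8h and 6.27 ± 0.54 at 0h, with a wider spread than in CIE mice, and the difference of −1.57 (SE 0.54) did not pass (FDR 0.192). The files used here give no detection calls, so the low 8h level of Rgs13 is not shown to be above background, and its fold is that of the deposited values. Dlgap2, a scaffold of the postsynaptic density, ran from 7.32 to 8.36 (median 7.99) at 8h and from 8.23 to 9.46 (median 9.03) at 0h (log2 change −1.06, SE 0.22, FDR 0.00152), against −0.64 (SE 0.22) in Ctrl mice. Cyp11a1, which makes the first step of steroid synthesis, fell by 0.93 (SE 0.19, FDR 0.00152), Inmt, a methyltransferase gene, by 0.92 (SE 0.17, FDR 0.000376) and Cnnm1 by 0.95 (SE 0.14, FDR 1.41e-05). Inmt averaged 7.50 ± 0.19 at 8h and 8.42 ± 0.20 at 0h in CIE mice, and 7.39 ± 0.27 at 8h and 7.65 ± 0.30 at 0h in Ctrl mice. Clspn, a checkpoint protein of DNA replication, fell by 0.72 (SE 0.12, FDR 0.000106), and Kcna4, a fast-inactivating potassium channel gene, by 0.46 (SE 0.09, FDR 0.000391). Other probe sets of Cyp11a1, Cnnm1, Clspn and Kcna4 were not called.

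Lists of receptors, channels and metabolism had few calls. In 9 lists 0 genes were called by limma, and the genes at an unadjusted p under 0.05 numbered 5 of 11 GABA-A receptor subunits, 4 of 9 metabotropic glutamate receptors and Homers, 2 of 20 synaptic vesicle genes, 2 of 13 ethanol and acetate metabolism genes, 4 of 20 NRF2 genes, 5 of 12 complement genes, 3 of 16 Notch and neural stem genes, 7 of 29 ribosomal proteins and 9 of 30 proteasome subunits, beside 22.3% of all genes. One GABA-A subunit gene was called without CIE mouse 57 of 0h or 15 of 8h, with the array sets as a block, the dentate covariate, the compared arrays alone or a mean of at least 6, and 2 with array weights. In 5 of the other 8 lists 1 gene was called in 1 alternative, with array weights for the metabotropic, Notch and proteasome lists, with the compared arrays alone for the synaptic vesicle list and with the dentate covariate for the NRF2 list. These counts read 1 probe set per gene, and another Homer1 probe set, given under other observations, was called. One of 20 potassium channels (Kcna4) and 2 of 24 ionotropic glutamate receptors and scaffolds (Dlgap2 and Grik5) fell, where 1.25% of all genes fell. Grik5, a kainate receptor subunit gene, fell by 0.30, and its call was lost without CIE 0h mice 19 or 72 or 8h mice 25, 41 or 69 and with the array sets as a block (FDR 0.0125). A single gene was called in each of 4 further lists, of 11 opioid and endocannabinoid genes, 39 histone and DNA modifying enzymes, 48 oxidative phosphorylation genes and 26 genes of cholesterol and fatty acid synthesis, where 2.97% of all genes were called. Each call was lost in 6 to 8 of the 12 fits without 1 CIE mouse and with the array sets as a block (FDR 0.0131 to 0.017). These were Daglb, a gene of endocannabinoid synthesis (−0.48, lost without 0h mice 19, 67 or 72 or 8h mice 23, 25 or 69), Kdm1a, a histone demethylase gene (−0.18, lost without 0h mice 11, 19 or 72 or 8h mice 15, 21, 25 or 41), Ndufb10, of respiratory complex I (−0.15, lost without 0h mice 19, 57, 67 or 72 or 8h mice 21, 23, 41 or 69) and Elovl6, of fatty acid elongation (0.45, lost without 0h mice 11, 43, 57 or 67 or 8h mice 21, 25, 41 or 69). Of 44 splicing factors, 4 rose (Tra2a by 0.39, Ptbp1 by 0.27, Srsf3 by 0.24 and Hnrnpc by 0.19) and Hnrnpdl fell by 0.18. Of all genes, 1.71% rose and 1.25% fell. The call of Tra2a was lost without 8h mouse 41, that of Srsf3 without 0h mice 19 or 57 or 8h mice 23, 41 or 69, and that of Hnrnpc without any CIE mouse but 0h mice 11 and 43 and 8h mouse 21 and with the array sets as a block (FDR 0.0149). That count of 5 was 2 without CIE mouse 41 of 8h, 3 without 0h mouse 19 or 8h mice 23 or 69, and 1 with only the 12 arrays fitted. Neat1, the scaffold RNA of nuclear paraspeckles, ran from 11.19 to 11.40 (median 11.29) at 8h and from 10.57 to 11.04 (median 10.82) at 0h (log2 change 0.49, SE 0.10, FDR 0.00188). The glucocorticoid-induced list had a median of −0.01, and 29 of its genes were not called, among them Fkbp5 at −0.01 (FDR 0.987). Lcn2, at levels not shown to be above background, was higher by 0.42 (FDR 0.00404) and Sesn1 lower by 0.46 (FDR 0.00349), where 2.97% of all genes were called. Without CIE mouse 21 of 8h neither was called, the Lcn2 call was also lost without 0h mice 43 or 72 or 8h mouse 23, and the Sesn1 call also without 8h mouse 69. With the array sets as a block 0 of the 31 were called, at an FDR of 0.0115 for Lcn2 and just above 0.01 for Sesn1. The mean of this list lay between 9.51 and 9.80 in CIE mice both at 8h and at 0h. In Ctrl mice it lay between 9.26 and 9.42 at 8h and between 9.19 and 9.38 at 0h, below all CIE mice at both times.

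**Figure D4:**
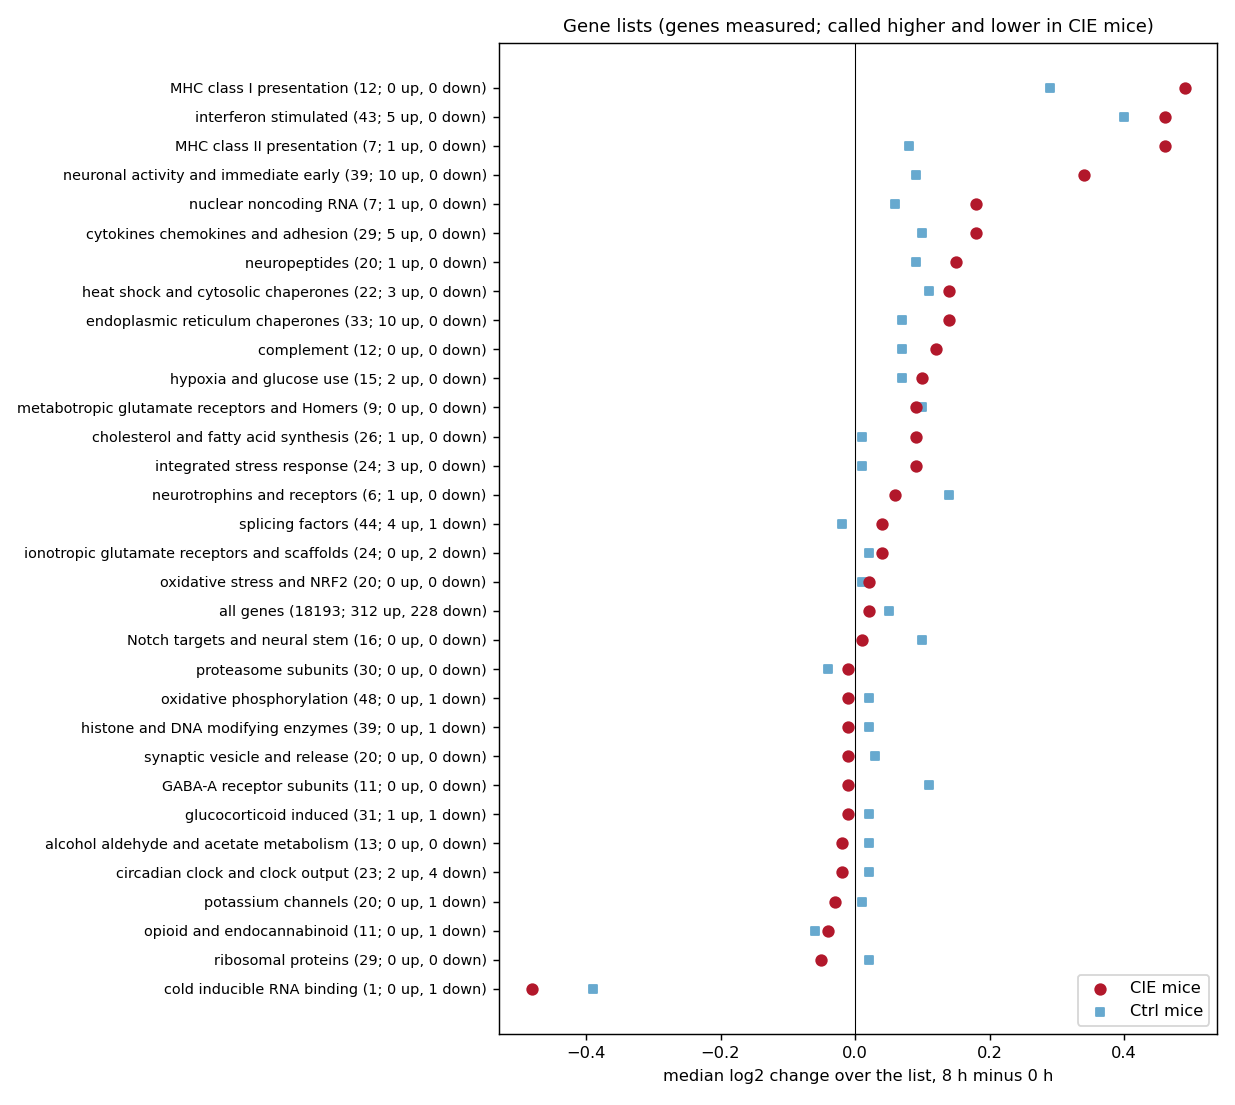
Median log2 change from 0h to 8h over each gene list, in CIE mice (red circles) and Ctrl mice (blue squares). Labels give the genes measured and those called higher and lower in CIE mice. The immediate early list lies at 0.34 in CIE and 0.09 in Ctrl mice, while the interferon list lies at 0.46 and 0.40.

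The remaining genes called in the test of the difference were Pik3cd, R74862 and Rbm33. Pik3cd, a lipid kinase gene, was read by a probe set with a change of 0.32 (SE 0.08, FDR 0.0115) in CIE and −0.34 (SE 0.08) in Ctrl mice (difference 0.66, SE 0.12, FDR 0.00448), while 5 other Pik3cd probe sets were not called. R74862 changed by −0.40 in CIE and 0.11 in Ctrl mice (difference −0.51, SE 0.09, FDR 0.00421), and Rbm33, an RNA-binding protein gene, by −0.30 in CIE and 0.15 in Ctrl mice (−0.46, SE 0.08, FDR 0.00448). With the array sets as a block the FDR of these 3 was 0.037, 0.0198 and 0.037, and with only the arrays of the groups compared 0.0382, 0.0482 and 0.0269. Each of these calls was also lost when some single mice were left out, with FDR values from 0.0101 to 0.0129. For Pik3cd these were CIE 8h mouse 25, CIE 0h mouse 57, Ctrl 8h mice 4 and 8 and Ctrl 0h mouse 2. For R74862 they were CIE 8h mice 25 and 69, CIE 0h mice 43 and 57 and Ctrl 8h mouse 8. For Rbm33 they were CIE 8h mice 23 and 41, CIE 0h mice 43, 57 and 67, Ctrl 8h mice 4 and 79 and Ctrl 0h mice 2 and 56.

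Mean levels at the later harvests are given as a description, with no test. Fos had its highest mean at 8h. In CIE mice it averaged 7.45 ± 0.35 (0h), 9.21 ± 0.38 (8h), 8.15 ± 0.16 (72h) and 7.91 ± 0.28 (7d). Cxcl10 averaged 6.39 ± 0.44, 7.70 ± 0.20, 5.70 ± 0.16 and 5.26 ± 0.14 at the same times, and H2-Aa 6.73 ± 0.41, 7.97 ± 0.39, 5.33 ± 0.35 and 5.15 ± 0.14, so both were lower at 72h and 7d than at 0h. Sdf2l1 averaged 8.47 ± 0.22, 9.13 ± 0.12, 8.29 ± 0.22 and 8.00 ± 0.09. Vegfa followed another course, with 7.58 ± 0.15 (0h), 8.21 ± 0.14 (8h), 8.16 ± 0.11 (72h) and 8.23 ± 0.22 (7d). Ciart averaged 8.22 ± 0.14, 7.19 ± 0.16, 7.76 ± 0.15 and 7.74 ± 0.12, and Rgs13 6.66 ± 0.13, 4.72 ± 0.33, 6.55 ± 0.42 and 5.63 ± 0.92.

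**Figure D5:**
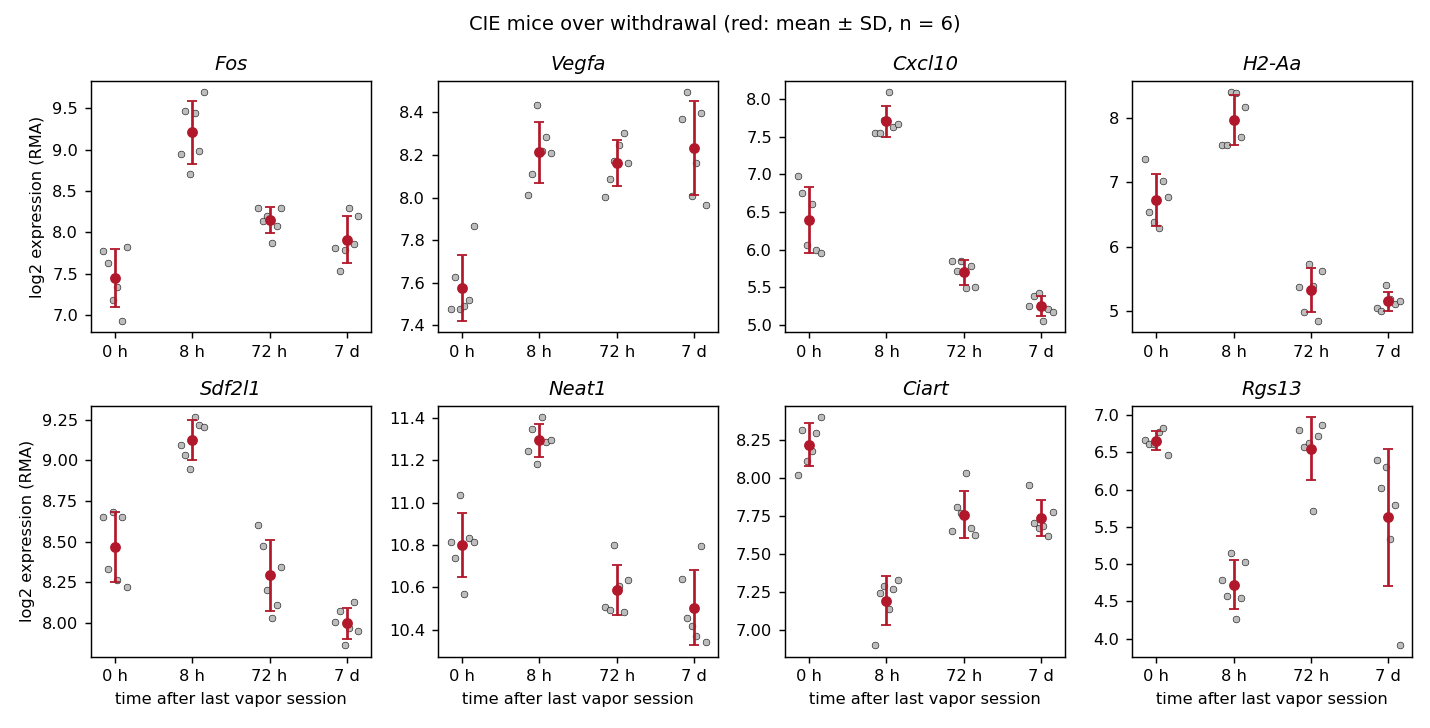
Log2 expression of 8 genes in CIE mice at 0h, 8h, 72h and 7d after the last vapor session (grey points are mice, red points and bars the mean and SD, n = 6). The 8 genes were chosen after their values were seen. Fos, Cxcl10, H2-Aa, Sdf2l1 and Neat1 have their highest mean at 8h and Ciart and Rgs13 their lowest, while Vegfa stays near its 8h level.

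Cell type markers were read beside these results. The list means of pyramidal neuron and of dentate granule neuron markers were 10.60 or more and 8.93 or more in CIE mice of both times. All 10 dentate granule markers had a change below 0 in CIE mice (median −0.65, 0 called by limma and 3 of 10 at an unadjusted p under 0.05, beside 22.3% of all genes) and in Ctrl mice (median −0.33). Their mean lay between 8.93 and 10.19 in CIE mice at 8h and between 9.46 and 10.51 at 0h, and it was lower at 8h in all 6 sets of arrays. Oligodendrocyte markers had a median change of 0.39, with 9 of 10 above 0 and 1 called, Ermn, a myelin cytoskeleton gene (log2 change 0.78, SE 0.17, FDR 0.00248). Of all genes, 55.5% had a change above 0 in CIE mice and 2.97% were called. Of 8 markers of T cells and other leukocytes, Ptprc, the gene of CD45, was called (0.52, SE 0.10, FDR 0.00106), and the microglia list had a median of 0.17 with 0 of 12 called by limma and 6 at an unadjusted p under 0.05, where 22.3% of all genes lay. In bulk tissue, fewer cells of a type and less RNA per cell cannot be told apart. With the dentate marker mean of each array as a covariate, an alternative chosen after the data were seen, 602 genes were called, 433 of them among the 540, and 66 of the 70 named genes that had been called kept their call, all but Npas4, Adamts3, Elovl6 and Kdm1a. Fos then had a change of 1.61 (FDR 1.89e-06), Cxcl10 of 1.36 and Dbp of −0.76, while that of Rgs13 was −1.40 and that of Cyp11a1 −0.66. The part of the other marker shifts in these results was not tested.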

How the data were processed

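RNA from the hippocampus of 48 mice was measured on Affymetrix whole-genome arrays. The deposited values are log2 RMA values, which the authors background corrected and quantile normalized by hybridization batch, quantile normalized again over all arrays and adjusted with ComBat. They were used as deposited, so a log2 difference may carry residual or removed batch effects, and the number of arrays limits the precision. The platform annotation gave gene names (34945 of 45037 had 1 symbol, 932 several and 9160 none). A gene was read by its probe set with the highest mean, which gave 18193 genes, and sequences came from RefSeq.

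All 48 arrays, each from its own mouse, entered 1 limma fit (version 3.58.1, R 4.3.3; lmFit, eBayes, two-sided) with a mean for each of 8 groups. The contrasts were 8h minus 0h in CIE mice, the same in Ctrl mice, and their difference, with Benjamini-Hochberg adjustment over all probe sets and a call at 0.01 or less. SE is that of the model and FDR the adjusted p. Lists were described by counts and medians, with no test. The scripts were checked on simulated data.

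The members and lists were chosen with earlier results of these data known. The rule for names took, among called genes, the 12 largest rises and the 12 largest falls, up to 5 members of each list with a call, genes called in the difference and called markers. The text names part of these, and other list members were named after their values were seen. Exactly equal values shared by arrays, at least 5 within 1e-08, placed 47 arrays in 6 sets with 1 mouse of a group each, apart from Ctrl mouse 2 of 0h, which lay in none. Alternatives were a fit of the compared groups alone, eBayes with trend and robust options, another quantile normalization, a mean of at least 6, array weights, the sets as a block, all probe sets of a gene, and leaving out each mouse.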

Additional observations from a re-analysis of the deposited data

Results flagged for a closer look

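In 15 of the 240 groups of 6 mice examined for the named genes, 1 mouse lay far from the other 5, and chance alone gives about 1 group in 20. At 8h, CIE mouse 25 had the highest Cxcl10 (8.09, the others 7.55 to 7.73), mouse 15 the highest Csnk2a1 (9.94, the others 9.19 to 9.46), mouse 21 the highest Cnr1 (12.26, the others 12.06 to 12.13) and mouse 41 the lowest Ppp1r15b (9.93, the others 10.03 to 10.05). CIE mouse 23 of 8h stood apart in 4 genes, with the highest Adamts3 (8.55, the others 7.58 to 7.80) and the lowest Ntrk2 (11.54, the others 11.77 to 11.89), Mirg (7.75, the others 8.20 to 8.30) and Ermn (10.03, the others 10.39 to 10.59). CIE mouse 69 of 8h had the lowest Grik1 (6.66, the others 7.31 to 7.63) and the highest Hdac4 (8.60, the others 8.42 to 8.48). At 0h, CIE mouse 57 had the lowest Cnnm1 (9.06, the others 9.58 to 9.88), mouse 72 the lowest Sesn1 (11.34, the others 11.58 to 11.63), mouse 67 the lowest Miat (12.11, the others 12.24 to 12.31), and mouse 11 the lowest Vip (9.41, the others 10.02 to 10.36) and the highest Ppp1r15b (9.97, the others 9.88 to 9.90).

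The change from 0h to 8h differed between CIE and Ctrl mice, by a test of the difference with limma at an FDR of 0.01, for 6 genes. The difference of the log2 changes was 2.11 for Fos, 0.66 for Pik3cd, 0.46 for Manf, −0.46 for Rbm33, −0.51 for R74862 and −0.57 for Dbp.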

How the results depend on the processing

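No paired analysis was possible because of the numbers in the labels, each of which occurs in 1 group only. The sets of arrays with equal values, each with 1 CIE mouse of 8h and 1 of 0h, were instead taken as a block. The 1290 probe sets called in CIE mice became 3314 with array weights and 839 with the array sets as a block, and lay between 825 and 1331 without any 1 mouse. The 540 genes became 1377 with array weights, 340 with the sets as a block (335 of them among the 540) and 975 when any probe set of a gene could be called, and lay between 337 and 499 without any 1 mouse. The 15 probe sets whose change differed from that in Ctrl mice became 3 when only the arrays of the 4 groups were fitted, 26 with a mean of at least 6, 5 with the sets as a block and 43 with the dentate covariate, and lay between 8 and 26 without any 1 mouse. The cause of these shifts was not tested. Of the 70 named genes that were called, 49 kept their call without any 1 mouse, 55 with the sets as a block, 66 with the dentate covariate and 46 in every fit, and 0 changes reversed. As each set held 1 mouse of each time, list medians within sets equal the main ones by construction. Other probe sets of Atf4, Per2, Pdia4, Pdia6, Neat1, Trim21, Tra2a, Ptbp1 and Hnrnpc were not called, as for Vegfa, Cyp11a1, Cnnm1, Clspn and Kcna4. Among the named genes that were called, 0 had another probe set called in the opposite direction. The fit of the 12 arrays alone called 505 genes, 321 of them among the 540. It lost 14 of the 70 named calls, among them Per2, Hnrnpdl, Ccl3, Tra2a, Srsf3, Hnrnpc, Grik5, Elovl6, Kdm1a, Ndufb10, Npas4 and Lcn2. Without detection calls, low values such as those of Lcn2 (3.95 to 4.94 at 8h and 3.75 to 4.17 at 0h in CIE mice), Ccl3, Rgs13 at 8h and Egr2 at 0h are not shown to be above background.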

Other observations

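The genes below were picked singly after their values were seen, from no list, so they have no denominator and stand for no group. One probe set of Homer1, whose short activity-induced form uncouples glutamate receptors from their scaffold, ran from 9.67 to 10.86 (median 10.61) at 8h and from 8.03 to 8.62 (median 8.39) at 0h in CIE mice, a 4.25-fold rise (log2 change 2.09, SE 0.17, limma FDR 1.16e-11). In Ctrl mice it changed by 0.77 (SE 0.17), and the difference of 1.32 was called (FDR 0.00505). The Homer1 probe set with the highest mean, which stands for the gene in the counts, changed by 0.38 (FDR 0.0552), and which form of the transcript each probe set reads is not given in the sources used here.

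Beside Dusp6, single genes that rose and have a known link to ERK signalling included Etv5, Spry4, Spred3, Ier3 and Shc4. Dusp4 and Dusp5, measured in the immediate early list, were not called. Etv5, an ETS transcription factor gene, ran from 10.50 to 10.89 (median 10.65) at 8h and from 9.25 to 10.04 (median 9.72) at 0h (log2 change 1.02, SE 0.16, FDR 4.13e-05), and 2 other Etv5 probe sets also rose. Spry4, an inhibitor of the pathway, rose by 0.78 (SE 0.12, FDR 5.47e-05), Spred3, of a related family, by 0.74 (SE 0.16, FDR 0.00296), Ier3 by 0.73 (SE 0.14, FDR 0.000616) and the adaptor gene Shc4 by 0.67 (SE 0.09, FDR 2.87e-06). Their changes in Ctrl mice were 0.40 for Etv5, 0.18 for Spry4, 0.25 for Spred3, 0.02 for Ier3 and 0.27 for Shc4, and no difference was called for the gene's main probe set.

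Single genes known from blood cells or microglia were Plek, Fyb, Lcp1, Ptpn6, Tlr2 and Itgb2, while of the marker lists 0 of 12 microglia genes (6 at an unadjusted p under 0.05, limma, beside 22.3% of all genes) and 1 of 8 leukocyte genes were called. Plek, a platelet and leukocyte protein gene, ran from 8.62 to 8.81 at 8h and from 7.92 to 8.12 at 0h (log2 change 0.65, SE 0.08, FDR 2.01e-06). Fyb, a leukocyte adaptor gene, rose by 0.61 (SE 0.09, FDR 9.90e-06), Lcp1, an actin bundler of blood cells, by 0.66 (SE 0.10, FDR 3.47e-05), the phosphatase gene Ptpn6 by 0.52 (SE 0.08, FDR 7.95e-05), the pattern receptor gene Tlr2 by 0.44 (SE 0.09, FDR 0.000752) and the integrin gene Itgb2 by 0.42 (SE 0.10, FDR 0.0051). The 4 globin probe sets, which cannot tell near-identical globin genes apart, had changes from −0.43 to −0.26 and were not called.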
